A study of Drosophila melanogaster with 6 samples.

Results

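The genes described here are rho and 9 further genes of EGF receptor signalling in Drosophila melanogaster: the rhomboid proteases rho and ru, the receptor Egfr, the ligands spi, Krn and vn, the feedback inhibitors aos, sty and kek1, and the transcription factor pnt. They are 10 of the 23932 genes in the deposited tables, taken by gene name. The set was built around rho because rho was higher in the libraries labelled dsFib. The contrast between the groups thus chose rho, whose values are given as a description with no test, and the other 9 were chosen for their roles with results of these data known. Total RNA of S2R+ cells, an established line with features of embryonic blood cells, was depleted of ribosomal RNA and sequenced by TGIRT-seq, in which a thermostable group II intron reverse transcriptase copies RNAs of all sizes. Of the 6 libraries, 3 carry the label dsFib, for RNA interference against the snoRNA-guided methyltransferase Fibrillarin. The other 3 carry the label dsLacZ, for interference against a bacterial gene absent from flies, so both groups received double-stranded RNA. Whether the libraries of a group are separate cultures is not stated, so the p-values reflect variation among these libraries, which may be technical.

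In flies, spi and Krn encode membrane-bound precursors of EGF-like ligands. Rhomboid proteases such as rho cut these precursors within the membrane after the chaperone Star has brought them out of the endoplasmic reticulum, and the freed ligand binds Egfr. The receptor signals through Ras and MAP kinase to pnt, an ETS-domain transcription factor, and the pathway limits itself through induced inhibitors, of which aos binds ligand outside the cell, kek1 binds the receptor and sty acts inside the cell. rho is known as the regulated step of this pathway in many tissues, while most other components are widely expressed.

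Libraries held 11695250 to 15172052 counts, of which 50.1% to 63.2% lay on protein-coding genes. Fib, the targeted gene, had 1312, 954.9 and 994.3 CPM in the libraries labelled dsFib and 213.9, 257.4 and 227.3 CPM in dsLacZ (CPM, the count relative to the library's total, scaled between libraries by TMM). The counts of the target thus went against the label, and all directions are therefore stated for libraries as labelled. Counts per gene do not tell Fib mRNA from any added double-stranded RNA of Fib sequence in the libraries, and the cause was not tested. The library dsLacZ replicate 2 stood apart, with 18.3% of its counts on tRNA where dsLacZ replicates 1 and 3 had 10.8% and 11.1% and those labelled dsFib had 13.4% to 15.3%. Of 12 genes listed as blood cell markers, 9 passed the filter on low counts, among them srp and Pxn. He was at 0 in every library, so that the blood cell character of the line rested on a part of these genes. Their summed level was 49.8 to 62.7 TPM (a level per transcript length) in the libraries labelled dsFib and 46.3 to 71.8 TPM in dsLacZ. At unadjusted p-values under 0.05, 3 of the 9 (Hml, Col4a1 and fz) were higher in the libraries labelled dsFib and 0 lower, where 7.67% of all tested genes were higher and 8.26% lower. Of these, fz encodes a Wnt receptor and is not specific to blood cells. Hml, Col4a1 and fz lay above in the libraries labelled dsFib without overlap, as 11% of all tested genes did. So did NimC1 and Sr-CI, below the filter with at most 10 counts. crq lay below in the libraries labelled dsFib without overlap, as 12.1% of all tested genes did (log2 fold change -0.21, SE 0.10, edgeR adjusted p = 0.353). It was the most abundant of these markers by TPM and made up most of their summed level, with means of 34.3 TPM in the libraries labelled dsFib and 42.5 TPM in dsLacZ. The part of these markers in the results was not tested. Of 8 markers of nerve, glia, muscle, fat body and germ cells, elav and bam passed the filter, and the summed level was 6.60 to 6.88 TPM in the libraries labelled dsFib and 4.58 to 9.19 TPM in dsLacZ. The nerve marker elav had means of 4.02 TPM in the libraries labelled dsFib and 4.78 TPM in dsLacZ, and bam 2.61 and 1.98 TPM. By CPM, elav lay below in the libraries labelled dsFib without overlap (log2 fold change -0.13, SE 0.11, edgeR adjusted p = 0.627), while bam overlapped.

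The first question was which parts of the pathway these cells expressed at all. The receptor gene Egfr (FBgn0003731; 2R, 21522420 to 21559977, plus strand, dm6) was almost without counts. It had 4, 0 and 0 counts in dsFib-labelled replicates 1, 2 and 3, and 0, 0 and 2 counts in dsLacZ replicates 1, 2 and 3. Taken as 3 counts of the library's total, without TMM scaling, a count of 0 allowed a level of up to 0.257 CPM in the shallowest library and 0.198 CPM in the deepest, for counting error only. The second protease, ru (FBgn0003295; 3L, 1370628 to 1387437, plus strand), was equally low, with 0, 4 and 0 counts in the libraries labelled dsFib and 0, 0 and 2 in dsLacZ. Neither gene passed the filter on low counts, and no fold change is given for them. In the 6 libraries, between 89.1% and 90.6% of whole-number counts from 1 to 60 were even, so that a count of 2 may be a single pair of reads, and the limits for a count of 0 would then be higher.

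**Figure D1:**
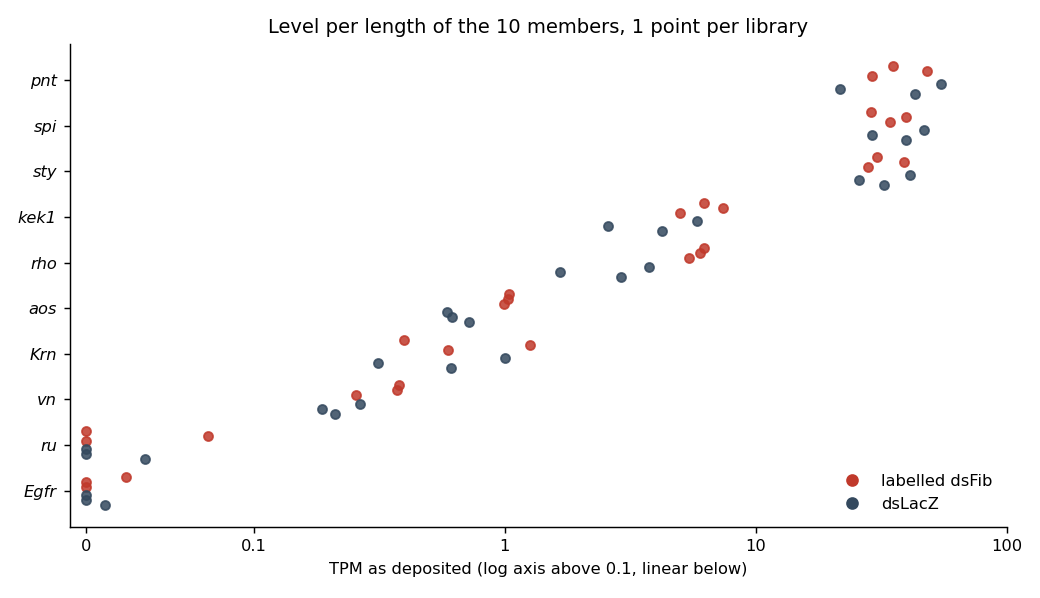
Level per length (TPM as deposited, log axis above 0.1 and linear below) of the 10 genes, with 1 point per library, red for the libraries labelled dsFib and dark for dsLacZ; points are spread vertically for legibility only. pnt, spi and sty lay above 20 TPM in every library, kek1 and rho lay below 8 TPM, and ru and Egfr were at 0 in 4 of 6 libraries each.

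The others fell into tiers of abundance. The transcription factor pnt, the ligand spi and the inhibitor sty were the most abundant, with means of 37.5, 34.3 and 32.4 TPM in the libraries labelled dsFib and 39.7, 38.5 and 33.0 TPM in dsLacZ, and their ranges overlapped in both groups. Each lay above 94.5% to 97.0% of protein-coding genes, depending on the library. kek1 and rho came next, with overlapping ranges in both groups, at 6.20 and 5.88 TPM in the libraries labelled dsFib and 4.22 and 2.77 TPM in dsLacZ. aos and Krn followed at 1.02 and 0.748 TPM in the libraries labelled dsFib and 0.642 and 0.641 TPM in dsLacZ, again with overlapping ranges. vn was lower still, at 0.336 TPM and 0.221 TPM, and lay apart from both Krn above it and ru below it. The cells thus held transcripts of the ligand gene spi and the protease gene rho, and abundant pnt and sty transcripts. The receptor gene had at most 4 counts in any library.

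rho (FBgn0004635; 3L, 1463811 to 1468944, plus strand), the protease that releases spi and Krn, had 41.7, 34.6 and 37.8 CPM in the libraries labelled dsFib, against 18.4, 13.3 and 16.4 CPM in dsLacZ. All 3 libraries labelled dsFib lay above all 3 dsLacZ libraries, and dsLacZ replicate 2 was the lowest. The fold change was 2.36 (log2 1.24, SE 0.15, edgeR, n = 3 per group). In bulk RNA, more cells that express a gene and more RNA per cell cannot be told apart. The counts behind these values were 471, 464 and 546 in the libraries labelled dsFib and 252, 159 and 231 in dsLacZ. Without dsLacZ replicate 2 the log2 fold change was 1.12, and over the 6 ways of leaving out a library it lay between 1.12 and 1.36. In each library labelled dsFib rho lay above 75.8% to 79.1% of protein-coding genes by TPM, and in dsLacZ above 64.8% to 67.1%.

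Ratios within a library do not depend on how libraries are scaled to each other. By TPM, rho stood to S, the gene of the chaperone Star that acts just before it, at 0.919, 1.01 and 1.02 in the libraries labelled dsFib and at 0.484, 0.398 and 0.433 in dsLacZ. Against rho-4, a related rhomboid protease, the ratio was 1.16, 0.652 and 0.844 in the libraries labelled dsFib and 0.460, 0.378 and 0.426 in dsLacZ. The ratios of both kinds were higher in every library labelled dsFib than in any dsLacZ library. Since rho was chosen for its higher level in the libraries labelled dsFib, these ratios and the share that follows restate it and are no test. Of the summed TPM of rho, ru, stet and rho-4, rho made up 44.7% ± 7.33 in the libraries labelled dsFib and 27.6% ± 2.46 in dsLacZ (SD, n = 3 each), and rho-4 held most of the remainder. S itself had a log2 fold change of 0.09 (SE 0.13) and rho-4 of 0.23 (SE 0.15), neither past the test (adjusted p = 0.78 and 0.503).

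**Figure D2:**
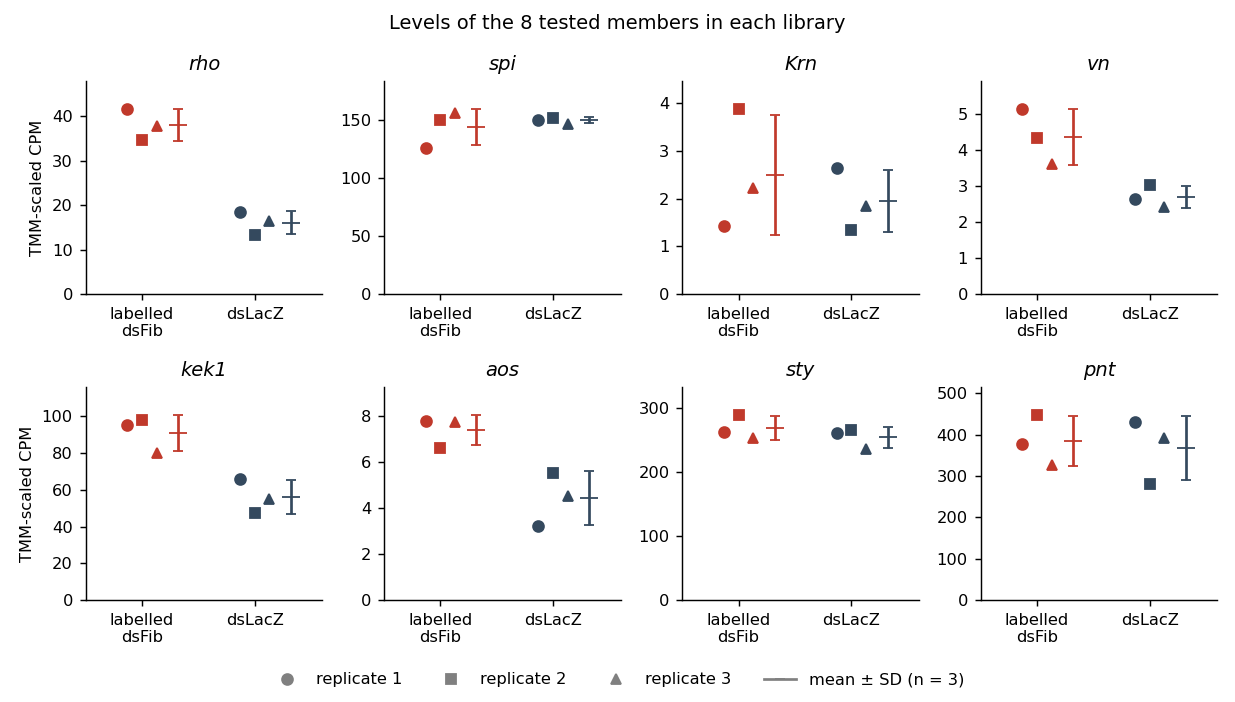
TMM-scaled CPM of the 8 genes that passed the filter on low counts, with 1 marker per library (circle, square and triangle for replicates 1, 2 and 3) and the mean ± SD of 3 libraries beside them, libraries labelled dsFib on the left and dsLacZ on the right of each panel. The groups lay apart for rho, vn, kek1 and aos and overlapped for spi, Krn, sty and pnt.

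Of the 9 genes other than rho, 7 passed the filter on low counts and 0 passed the edgeR test in either direction. Over the whole table, 0.53% of the 8302 tested genes passed as higher and 0.373% as lower. At an unadjusted p of 0.05, 3 of the 7 were higher and 0 lower, where 7.67% of all tested genes were higher and 8.26% lower. DESeq2, which called 2.28% of all genes higher and 1.58% lower, called 1 of the 7 higher, and limma-voom, with 0.482% and 0.325%, called 0. Voom with quality weights per library, chosen after seeing the data, called 3.77% of all genes higher and 2.85% lower, and 1 of the 7 higher. The 1 gene was kek1 in both cases. The groups lay apart, with every library labelled dsFib above every dsLacZ library, for 3 of the 7 (vn, aos and kek1), where 11% of all tested genes did so and 12.1% did so in the other direction. The median log2 fold change of the 7 was 0.37 and that of all tested genes was -0.01. The genes were chosen with results known and 7 is a small number, so these counts describe the list only.

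Among the inhibitors, kek1 (FBgn0015399; 2L, 12817000 to 12822787, minus strand), a leucine-rich repeat protein that binds the receptor, had 95.2, 97.6 and 79.8 CPM in the libraries labelled dsFib, against 65.9, 47.3 and 54.8 CPM in dsLacZ. The groups did not overlap on this scale, although they did by TPM, where dsLacZ replicate 1 had 5.85 and dsFib-labelled replicate 3 had 4.99. The log2 fold change was 0.70 (SE 0.14, 95% interval 0.38 to 1.02), or 1.62-fold, and did not pass (edgeR adjusted p = 0.0609, by the quasi-likelihood test with Benjamini-Hochberg adjustment). DESeq2 called kek1 higher (adjusted p = 0.002), and so did edgeR without dsLacZ replicate 1 (adjusted p = 0.0292) or without dsLacZ replicate 2 (adjusted p = 0.0333), while over all alternatives the adjusted p ran from 0.002 to 0.293. Within libraries, the ratio of kek1 to sty by TPM was 0.191 ± 0.0134 in the libraries labelled dsFib and 0.124 ± 0.0218 in dsLacZ (SD, n = 3 each), without overlap. Since sty was close to equal between the groups, this ratio restates the value of kek1 and is no test.

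The secreted inhibitor aos (FBgn0004569; 3L, 16470386 to 16483650, minus strand) was low, with 88, 89 and 112 counts in the libraries labelled dsFib and 44, 66 and 64 in dsLacZ. Scaled, these were 7.79, 6.63 and 7.75 CPM in the libraries labelled dsFib and 3.22, 5.54 and 4.55 CPM in dsLacZ. The groups lay apart, and dsLacZ replicate 1 was the lowest. The log2 fold change was 0.74 (SE 0.26, 95% interval 0.15 to 1.33) and did not pass (edgeR adjusted p = 0.218). aos lies inside the span of CG33158 on the other strand and shares no exon base with it. CG33158 had a log2 fold change of 0.43 (SE 0.09, adjusted p = 0.0753), and its part in the value of aos was not tested.

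sty (FBgn0014388; 3L, 3401153 to 3424935, minus strand), the fly Sprouty, was abundant and close to equal between the groups. Its levels were 262.4, 288.9 and 253.0 CPM in the libraries labelled dsFib and 261.1, 266.1 and 235.8 CPM in dsLacZ, which overlapped. The log2 fold change was 0.08 (SE 0.10, edgeR adjusted p = 0.763), and the 95% interval, -0.15 to 0.30, holds no change as large as the estimates for kek1 and aos. The transcription factor pnt (FBgn0003118; 3R, 23290231 to 23346167, minus strand) varied more between libraries, with 378.2, 447.6 and 326.4 CPM in the libraries labelled dsFib and 430.6, 280.7 and 391.3 CPM in dsLacZ. Its lowest value was that of dsLacZ replicate 2 and the groups overlapped. The log2 fold change of pnt was 0.06 (SE 0.18, 95% interval -0.34 to 0.47, edgeR adjusted p = 0.905).

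The ligands differed from each other in level far more than between groups. spi (FBgn0005672; 2L, 19567900 to 19577315, minus strand), the main fly EGF-like ligand, had 126.2, 149.8 and 156.0 CPM in the libraries labelled dsFib and 150.5, 152.1 and 147.0 CPM in dsLacZ. The groups overlapped, with dsFib-labelled replicate 1 as the lowest library and dsFib-labelled replicate 3 as the highest. Its log2 fold change was -0.06 (SE 0.10, 95% interval -0.29 to 0.18, edgeR adjusted p = 0.838). Of the summed TPM of spi, Krn, vn and grk, spi made up 83.9% ± 1.08 in the libraries labelled dsFib and 86.7% ± 3.01 in dsLacZ (SD, n = 3 each), and the groups overlapped. The ligand gene grk held most of the remainder, with means of 5.56 TPM in the libraries labelled dsFib and 5.34 TPM in dsLacZ.

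vn (FBgn0003984; 3L, 5813338 to 5845664, minus strand) encodes a neuregulin-like ligand that is secreted without cleavage by rho. It had 58, 58 and 52 counts in the libraries labelled dsFib and 36, 36 and 34 in dsLacZ, or 5.13, 4.32 and 3.60 CPM in the libraries labelled dsFib and 2.63, 3.02 and 2.42 CPM in dsLacZ. The groups did not overlap by CPM, although they did by TPM, where dsFib-labelled replicate 3 had 0.256 and dsLacZ replicate 1 had 0.265. The log2 fold change of 0.69 (SE 0.29, 95% interval 0.02 to 1.36) did not pass (edgeR adjusted p = 0.298). Without dsLacZ replicate 2 the log2 fold change was 0.78 for vn and 0.93 for aos, and neither passed (adjusted p = 0.281 and 0.105). Krn (FBgn0052179; 3L, 17649562 to 17654280, minus strand), which like spi needs cleavage, had 16, 52 and 32 counts in the libraries labelled dsFib and 36, 16 and 26 in dsLacZ. The groups overlapped widely, and the log2 fold change of 0.37 (SE 0.47, 95% interval -0.71 to 1.45, edgeR adjusted p = 0.756) did not pass. Krn lies inside Ndfip on the same strand and shares 289 exon bases with it, and Ndfip, with a log2 fold change of -0.17 (SE 0.09), had 689 to 1014 counts, so the low counts of Krn are uncertain.

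**Figure D3:**
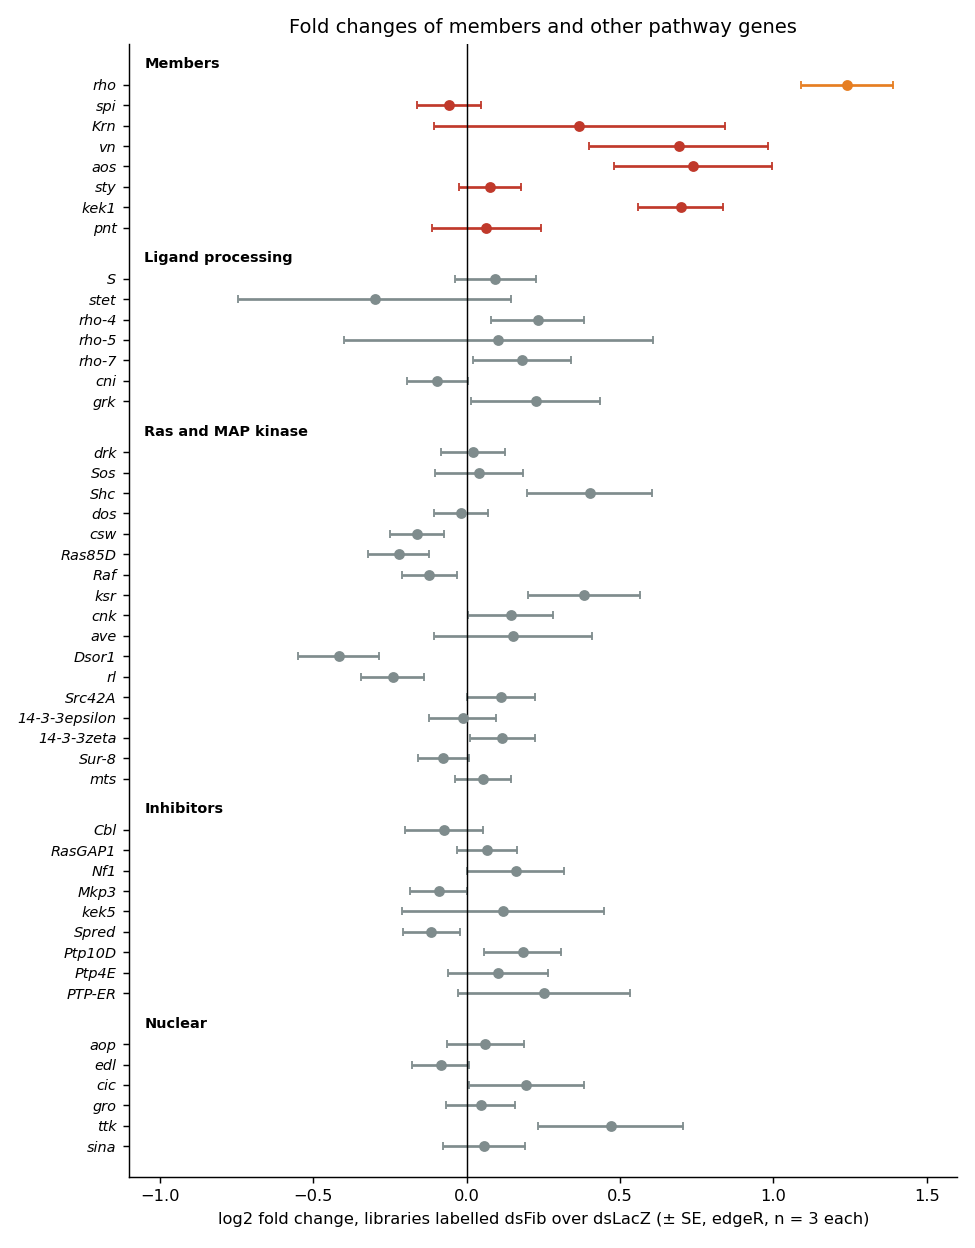
log2 fold change, libraries labelled dsFib over dsLacZ, with its SE from edgeR (n = 3 libraries each), for the 8 genes described above (rho in orange, shown without a test, the others in red) and 39 other genes of the pathway in grey, grouped by role. rho lay at 1.24, kek1, aos and vn near 0.7, and the grey genes between -0.42 and 0.47.

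Other genes of the pathway, 43 in all by role, gave the setting for these values. Of them 39 passed the filter, and phyl, mirr, rho-6 and kek2 did not. None of the 39 passed the edgeR test, DESeq2 or limma-voom, and at unadjusted p-values under 0.05 there were 0 higher and 2 lower of 39, no larger a share than the 7.67% and 8.26% of all tested genes. Their median log2 fold change was 0.06, with 25 above 0 and 14 below. In the group of Ras and MAP kinase genes, the 17 tested had a median of 0.02. The groups lay apart for 8 of the 39, 2 of them higher and 6 lower in the libraries labelled dsFib, where 11% and 12.1% of all tested genes did so. All 8 were among the 17 Ras and MAP kinase genes, and 0 were in the other 3 groups. Of these 17 genes, 0 passed edgeR, DESeq2 or limma-voom in either direction. The role groups were chosen with earlier results known, so this split describes the lists only, and it was not tested.

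The 2 genes at an unadjusted p under 0.05 were Dsor1 and rl. Dsor1, the MAP kinase kinase, had 21.6, 18.9 and 24.8 CPM in the libraries labelled dsFib and 28.9, 29.7 and 28.6 CPM in dsLacZ, with a log2 fold change of -0.42 (SE 0.13, edgeR adjusted p = 0.187). rl, the MAP kinase, had 69.6, 61.1 and 66.4 CPM in the libraries labelled dsFib and 75.6, 85.5 and 71.8 CPM in dsLacZ, with a log2 fold change of -0.24 (SE 0.10, edgeR adjusted p = 0.299). For both genes the 3 libraries labelled dsFib lay below the 3 of dsLacZ, and neither passed the test over all genes.

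The remaining groups lay close to 0. The group named ligand processing also holds the ligand grk and rhomboid relatives such as rho-7, a mitochondrial rhomboid. Its 7 tested genes had a median of 0.10, with rho-4 at 0.23 and rho-7 at 0.18 (SE 0.16, adjusted p = 0.643) as those of smallest p. The 9 tested inhibitors also had a median of 0.10. Those of smallest p were Ptp10D, a receptor tyrosine phosphatase, at 0.18 (SE 0.13, adjusted p = 0.533) and Spred, a relative of Sprouty, at -0.11 (SE 0.09, adjusted p = 0.604). The 6 tested nuclear genes had a median of 0.06, and their smallest p belonged to the repressors ttk at 0.47 (SE 0.24, adjusted p = 0.379) and cic at 0.19 (SE 0.19, adjusted p = 0.671). aop, the ETS-domain repressor that opposes pnt, had 0.06 (SE 0.13, adjusted p = 0.864).

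**Figure D4:**
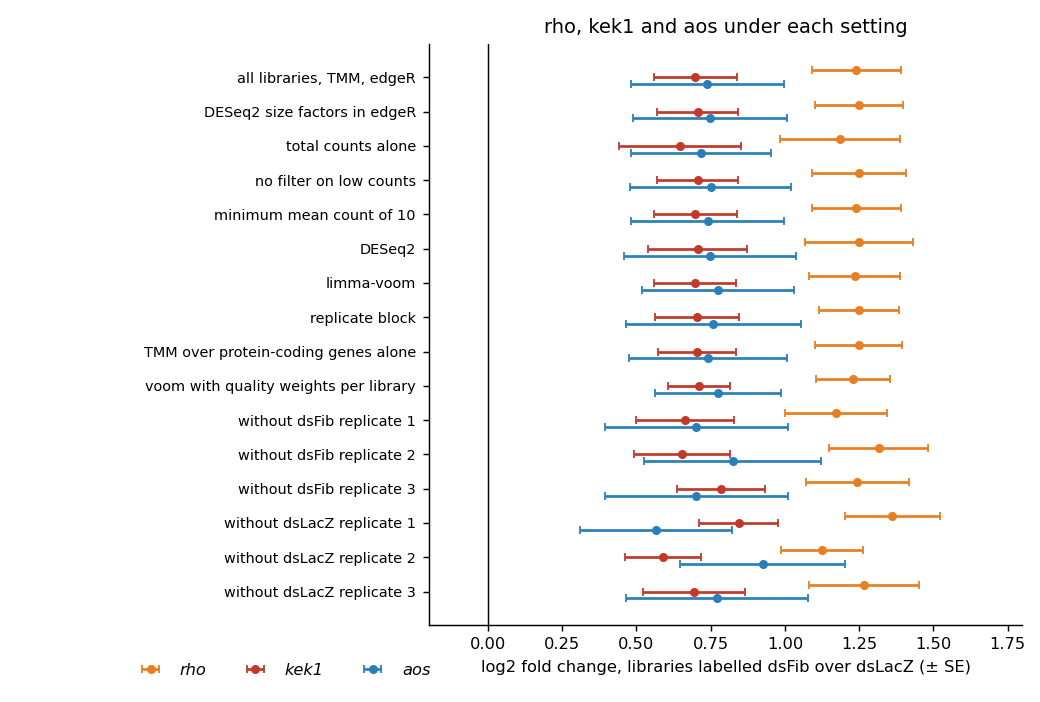
log2 fold change of rho, kek1 and aos (± SE), libraries labelled dsFib over dsLacZ, with all libraries and under each alternative test, scaling, filter or left-out library. rho stayed between 1.12 and 1.36, kek1 between 0.59 and 0.84 and aos between 0.57 and 0.93.

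Position in the genome was a feature that the choice of the genes did not use. Of the 10 genes, 6 lie on chromosome arm 3L, and rho, ru and stet form a cluster of rhomboid genes there. ru ends 76.4 kb before the start of rho, and stet lies 6.49 kb beyond the end of rho on the other strand. Both rho and ru lie on the plus strand within the span of Ptp61F, a protein tyrosine phosphatase gene on the minus strand, and neither shares an exon base with it. Of 20 annotated genes within 50 kb of rho, 10 passed the filter on low counts. None passed the edgeR test, DESeq2 or limma-voom, their median log2 fold change was -0.04, and unadjusted p-values under 0.05 were found for 1 higher and 2 lower genes of the 10, where the shares of all tested genes were 7.67% and 8.26%. The host Ptp61F had 14.2 ± 0.976 CPM in the libraries labelled dsFib and 12.98 ± 3.08 CPM in dsLacZ (SD, n = 3 each), with a log2 fold change of 0.12 (SE 0.20, edgeR adjusted p = 0.812).

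The other rhomboid gene of the cluster that passed the filter, stet, known for its role in the germ line, had a log2 fold change of -0.30 (SE 0.44, adjusted p = 0.792) on low counts. CG12084 was the neighbour with the largest positive value, 0.39 (SE 0.11, adjusted p = 0.145), and scaRNA:MeU2-48, a small RNA that guides methylation of U2 snRNA, had the largest negative one, -0.38 (SE 0.10, adjusted p = 0.128).

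**Figure D5:**
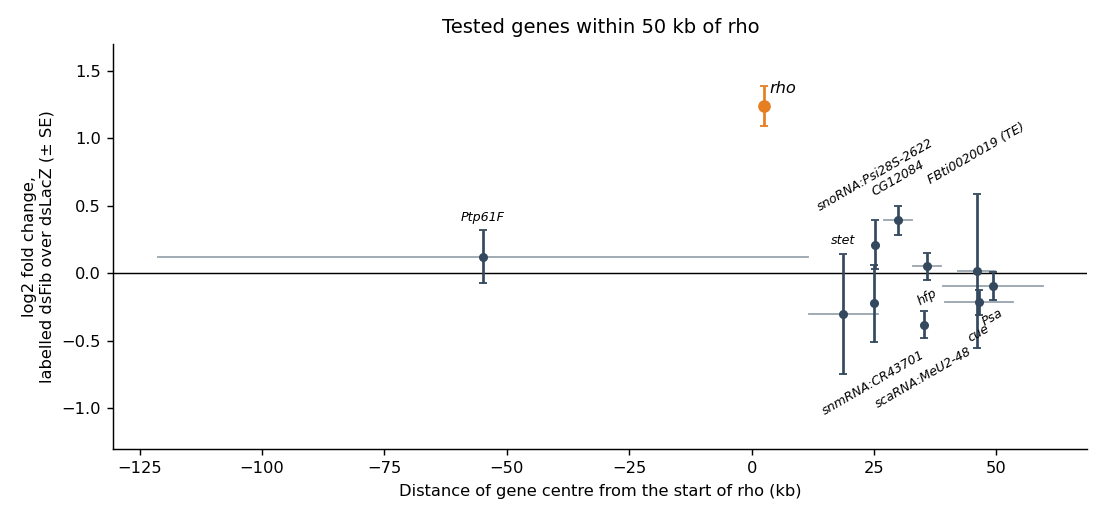
log2 fold change (± SE), libraries labelled dsFib over dsLacZ, of rho and the 10 tested genes within 50 kb, against the distance of the gene's centre from the start of rho in kb; horizontal lines mark each gene's span and TE marks a transposable element. rho lay at 1.24 and its neighbours between -0.38 and 0.39.

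The genes whose pattern over the 6 libraries was closest to that of rho were sought among 6610 tested genes with a mean of at least 5 CPM. The measure was the root mean square difference of log2 CPM after subtraction of each gene's mean, and since rho differs between the groups, the closest genes do so by construction. They were spir, an actin nucleator (difference 0.13), Mocs1, an enzyme gene of molybdenum cofactor synthesis (0.15), the ABC transporter gene rdog (0.15), the autophagy-linked gene DOR (0.17), and Xrp1, a bZIP transcription factor of stress and cell competition (0.18). spir had 19.8, 16.7 and 14.9 CPM in the libraries labelled dsFib and 9.65, 5.79 and 7.32 CPM in dsLacZ. Xrp1 had 320.8, 311.2 and 247.0 CPM in the libraries labelled dsFib and 169.7, 114.6 and 152.0 CPM in dsLacZ. Of the 9 genes other than rho, kek1 stood 45th in this order (difference 0.30) and aos 270th (0.44). pnt, sty and spi stood 2073rd, 2136th and 3633rd, and vn, Krn, ru and Egfr, with means under 5 CPM, were not ranked. The order is by distance from rho, so it partly restates the differences between groups given above.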

How the data were processed

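RNA of 6 S2R+ libraries was measured by TGIRT-seq. Per the file headers, the authors deposited 3 values for each gene, namely its estimated count, its CPM and its TPM. CoCo appears as counter in the table names. The tools in the submitters' processing notes are STAR, Bowtie2 and cutadapt 3.4, with dm6 as build. For the counting, the version, annotation, filters and strand setting are not given in the sources consulted here. The deposited CPM equals the estimated count scaled by the library's total, within 1.5e-11, and the deposited TPM was used only for levels per length and ratios within a library. Between 7.1% and 9.27% of genes had a fractional count.

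Rounded estimated counts went into edgeR 4.0.16 (R 4.3.3) with filterByExpr, which left 8302 genes, TMM scaling, and the quasi-likelihood test with the group as single term. p-values were adjusted by Benjamini-Hochberg over all tested genes, with a threshold of 0.05. DESeq2 1.42.0 and limma 3.58.1 (voom) were alternatives. The code was run on simulated data with known changes, as a check of the code and not of the results given here. Coordinates are those of the Ensembl annotation of BDGP6, which has dm6 coordinates, and 23851 genes were matched by identifier.

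The members and lists were chosen with earlier results of these data known. The text names the 10 members, Fib, the 2 genes of smallest p and any gene past the threshold of each pathway list, tested genes within 50 kb of rho (given by summary and extremes), and the 5 closest profiles. S, stet, grk, aop and the overlapping genes CG33158 and Ndfip were named for their roles or positions after their values were seen, as were the genes and markers below the filter. Gap1, listed with the inhibitors, is an older symbol of RasGAP1 and counts once.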

Additional observations from a re-analysis of the deposited data

How the results depend on the processing

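The log2 fold change of rho kept its sign and moved by less than the spread between replicates (SD 0.19, log2) under all 15 alternatives. Its adjusted p over all genes, which is no independent test since it led to the choice of rho, was over 0.05 with total counts alone (0.0624) and with the replicate block (0.072). It was under 0.05 in 2 of the 6 fits that leave out a library and as high as 0.148 in the other 4. Of the other members, the number past the threshold as higher was 0 with all libraries and 1, in each case kek1, without a filter on low counts, with DESeq2, with voom and quality weights per library, which was chosen after seeing the data, and without dsLacZ replicate 1 or 2, so that leaving out a library gave 0 to 1. None was lower, and none of the other pathway genes passed, under any alternative. Signs turned for spi and pnt, whose values lay near 0, and for Krn, whose value was smaller than its SE. Leaving out single libraries gave -0.12 to 0.0301 for spi (positive without dsFib replicate 1), -0.0797 to 0.66 for Krn (negative without dsFib replicate 2) and -0.0976 to 0.21 for pnt (negative without dsFib replicate 2 or dsLacZ replicate 2), and pnt had -0.0204 with quality weights. Over the whole table, 44 genes were higher and 31 lower. These counts were 5 higher with total counts alone, 167 and 116 without a filter, 189 and 131 with DESeq2, 313 and 237 with quality weights, and 1 to 221 higher and 1 to 89 lower without single libraries. With the replicate number as a block they were 0 and 1, and rho had 1.25. Deviations from the group means correlated at -0.03, -0.18 and -0.10 for the same numbers and at -0.12 to 0.18 for different numbers. With 3 libraries per group, these values cannot decide whether the numbers pair the libraries. Scaling by total counts gave 5 higher and 26 lower, so that calls were mostly lower. Values of Egfr, ru, Krn and vn are limited by counts of at most 58 a library. The causes of these shifts were not tested.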
